A study of Mus musculus with 8 samples.

Results

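The genes described here are 39 genes of fast skeletal muscle, chosen by symbol: the proteins of the fast sarcomere (myosin, actin, troponin, titin and their partners), the calcium handling that drives its contraction, and the muscle isoforms of the enzymes that supply its ATP. Of the 39, 38 were found among the 49452 genes of the expression table. Acta1, skeletal muscle actin, was not analysed here. All mice were C57BL/6 males. RNA-Seq covered their brown adipose tissue (BAT) with 8 libraries, 2 in each of 4 groups. Mice of 10 to 12 weeks of age were kept at 22 °C (replicates 4 and 7) or held at 4 °C for 24 h (replicates 2 and 11), of which the last 4 h were without food, and the methods leave unclear if food was also withdrawn at 22 °C. Mice of 32 weeks of age had received a control diet (CD, replicates 6 and 8, called normal chow in the labels) or a high-fat diet (HFD, replicates 2 and 6) for 28 weeks. All groups were of the same strain and sex, no genetic change is named for them, and no sorting of the dissected tissue is described. Values are FPKM (fragments per kilobase of transcript, scaled to the depth of the library) and stand in the order of the replicate numbers just given. FPKM is a level per length, so that levels of different genes can be set side by side.

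In a sarcomere, thick filaments of myosin pull on thin filaments of actin when calcium binds troponin on the thin filament. Thin filaments are anchored in the Z-disc and thick filaments in the M-band, and titin spans the distance from one to the other. Fibres are classed by their myosin heavy chain: Myh4 marks the fastest (type IIB) fibres, Myh1 type IIX, Myh2 type IIA and Myh7 slow (type I) fibres. Brown adipocytes burn fat to make heat through the uncoupling protein Ucp1, and they share a developmental origin with skeletal muscle, against which the brown fat depots of the mouse lie. Whether all 38 genes moved by 1 common factor from library to library, as the transcripts of a piece of muscle in the tissue would, is the question followed here. In bulk tissue, more muscle cells and more of each transcript per cell cannot be told apart.

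The labelled tissue showed in its markers. Ucp1 lay between 699 and 6462 FPKM and Fabp4, a fatty acid carrier of adipocytes, between 3469 and 7595. One fragment on a transcript of 2 kilobases was worth 0.00440 to 0.00603 FPKM, depending on the library. The satellite-repeat gene Gm10800 exceeded 100 FPKM in HFD replicate 2, CD replicate 8, 4 °C replicate 11 and 22 °C replicate 4, which are called satellite-high here. Genes of the X chromosome were listed at 0 in both 22 °C libraries and in CD replicate 6, so tests ran on autosomal genes, which all 38 found are. The descriptions of the 22 °C, 4 °C and CD replicate 6 libraries share a prefix that differs from that of the other 3, and its meaning is not given.

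Promoter sequences are shown for 6 of the genes on which the results turn: Ckm, of the highest mean FPKM; Myh4 and Myh1, neighbouring myosins whose ratio shifted; Klhl41, of the lowest adjusted p in the cold; Actn2, of the largest log2 fold change of FPKM + 1 in the cold; and Des, which departed most from the others in HFD replicate 6. Each run holds the 250 bases before the RefSeq start of transcription, read 5′ to 3′ on the strand of the gene (GRCm38.p6), and capitals mark matches to CAGCTG, the E-box preferred by the myogenic factors MyoD and myogenin, to the MEF2 site or to the CArG box bound by serum response factor.
Ckm (chr7:19410844-19411093, plus strand): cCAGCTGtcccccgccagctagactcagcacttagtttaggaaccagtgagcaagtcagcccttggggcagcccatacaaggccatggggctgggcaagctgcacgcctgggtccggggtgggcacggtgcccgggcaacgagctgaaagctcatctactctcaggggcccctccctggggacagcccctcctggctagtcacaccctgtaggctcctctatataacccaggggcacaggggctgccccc
Myh4 (chr11:67237562-67237811, plus strand): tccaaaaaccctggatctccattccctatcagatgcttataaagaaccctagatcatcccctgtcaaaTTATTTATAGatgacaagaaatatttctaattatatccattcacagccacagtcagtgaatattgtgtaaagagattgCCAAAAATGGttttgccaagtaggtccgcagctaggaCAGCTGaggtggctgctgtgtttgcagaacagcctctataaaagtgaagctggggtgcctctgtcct
Myh1 (chr11:67199852-67200101, plus strand): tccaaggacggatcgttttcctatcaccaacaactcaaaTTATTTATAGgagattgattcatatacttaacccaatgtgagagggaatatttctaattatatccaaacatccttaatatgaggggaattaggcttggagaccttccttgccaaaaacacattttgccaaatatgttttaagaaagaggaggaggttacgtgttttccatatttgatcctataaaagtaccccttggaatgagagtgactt
Klhl41 (chr2:69669870-69670119, plus strand): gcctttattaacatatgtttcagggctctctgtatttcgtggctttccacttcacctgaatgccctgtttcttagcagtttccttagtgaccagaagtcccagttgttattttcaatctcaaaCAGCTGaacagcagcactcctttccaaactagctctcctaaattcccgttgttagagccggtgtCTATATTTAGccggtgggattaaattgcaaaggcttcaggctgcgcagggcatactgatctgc
Actn2 (chr13:12340733-12340982, minus strand): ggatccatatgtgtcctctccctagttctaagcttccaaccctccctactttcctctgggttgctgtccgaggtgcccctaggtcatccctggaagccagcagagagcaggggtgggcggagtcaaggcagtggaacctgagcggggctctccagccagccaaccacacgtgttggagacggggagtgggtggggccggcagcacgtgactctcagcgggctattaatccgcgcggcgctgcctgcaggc
Des (chr1:75360042-75360291, plus strand): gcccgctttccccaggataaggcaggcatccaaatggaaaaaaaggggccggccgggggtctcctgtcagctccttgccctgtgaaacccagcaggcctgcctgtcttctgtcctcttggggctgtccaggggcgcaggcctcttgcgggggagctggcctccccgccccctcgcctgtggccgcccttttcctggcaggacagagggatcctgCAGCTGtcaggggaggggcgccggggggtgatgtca
Of the 38 genes, 25 had RefSeq entries, with 32 windows. CAGCTG, a palindrome and thus the same on both strands, stood in 13 of these windows (40.6%) and in 13% of all 32851 windows of the same length. The MEF2 site, searched on both strands, stood in 8 windows (25%) against 1.69% of all windows, and the palindromic CArG box in 4 (12.5%) against 1.47%. Overlapping windows of Ldb3 held the same CArG box, and those of Mb the same CAGCTG. The windows with a CArG box were thus of 3 genes and those with CAGCTG of 12. CATTCC, the site of TEAD factors, stood in 6 windows (18.8%) against 12.6%, TATAAA in 4 (12.5%) against 12.4%, and the general E-box CANNTG in 26 (81.2%) against 66.2%, the last 3 on either strand and CANNTG including every CAGCTG. In Myh1, Myh4 and Myh8 a TATAAA match on the reverse strand lay within the MEF2 match. The window of Actn2 held none of the 3 marked motifs. These matches describe the windows only.

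The thick filament genes were the first role examined. Myh4, the heavy chain of type IIB fibres, had 38 and 9.42 FPKM in the libraries at 22 °C, 270.04 and 159.9 in the 4 °C ones, 28.8 and 195 with CD and 15.2 and 0.71 with HFD. The groups of each comparison did not overlap, with 4 °C above 22 °C and HFD below CD, and the replicates of a group differed by between 1.69-fold (4 °C) and 21.4-fold (HFD). Myl1, the fast essential light chain, was at 345 and 193 FPKM in the cold against 67.4 and 36.2 at 22 °C, and 36.2 and 25.5 with HFD against 76.3 and 159 with CD, so that HFD replicate 6 kept 7.37% of the highest level where Myh4 kept 0.263%. Mylpf, the fast regulatory light chain, was measured at 48 and 12 FPKM in the libraries at 22 °C, 499 and 153 in the 4 °C ones, 69.4 and 103 with CD and 14.4 and 1.92 with HFD. It was the most abundant thick filament gene in 4 °C replicate 2.

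Myh1 and Myh2, the heavy chains of type IIX and type IIA fibres, were less abundant. The values of Myh1 were 19.7 and 18 FPKM in the cold against 6.87 and 0.965 at 22 °C, and 11.1 and 0.285 with HFD against 6.68 and 13.8 with CD. Here the HFD libraries did not both lie below CD, since HFD replicate 2 lay between the 2 CD libraries. Myh2 stood at 4.13 and 1.35 FPKM in the libraries at 22 °C, 29.6 and 10.6 in the 4 °C ones, 3.69 and 27.4 with CD and 1.33 and 0.102 with HFD. Myh8, the perinatal heavy chain, was at 0.0168 and 0.0264 FPKM in the cold against 0.0325 and 0.00309 at 22 °C, and 0.0422 and 0.00227 with HFD against 0.00174 and 0.0337 with CD. This corresponds to about 1.23 to 25.8 fragments, and it did not pass the filter of 0.1 FPKM in 2 of 4 libraries. The 4 heavy chain genes lie side by side on chromosome 11 (chr11:67171027-67308634) and are near-identical over long stretches, so the split of fragments between them is uncertain. Mybpc1 and Mybpc2, myosin-binding proteins of the thick filament, ranged from 0.195 to 46.2 FPKM and from 0.229 to 50.1 FPKM, both with the lowest value in HFD replicate 6 and the highest in 4 °C replicate 2.

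Among the thin filament genes the fast troponins T and I had the highest mean FPKM. Tnnt3, fast troponin T, which ties the troponin complex to tropomyosin, had 115 and 21.6 FPKM in the libraries at 22 °C, 889 and 389.6 in the 4 °C ones, 118 and 307 with CD and 37.4 and 3.08 with HFD. For Tnni2, the inhibitory subunit, the values were 731 and 318 FPKM in the cold against 86.7 and 16.2 at 22 °C, and 29.6 and 2.77 with HFD against 104 and 227 with CD. The 2 genes neighbour each other on chromosome 7, and Tnnt3 stayed the higher of the 2 in all 8 libraries. Tnnc2, the calcium-binding subunit, ranged from 0.86 to 189.9 FPKM and was the only gene of this role with its highest value in 4 °C replicate 11.

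Tpm2, a tropomyosin of the thin filament that smooth muscle also makes, was at 50.8 and 14.9 FPKM in the libraries at 22 °C, 515 and 221 in the 4 °C ones, 67.4 and 166 with CD and 27.4 and 12.3 with HFD. Neb, nebulin, the giant protein that runs along the thin filament, was at 55.2 and 37 FPKM in the cold against 7.44 and 2.59 at 22 °C, and 3.96 and 0.396 with HFD against 7.24 and 55.2 with CD. It was at 55.2 FPKM in both 4 °C replicate 2 and CD replicate 8, so the highest CD library reached the highest 4 °C library for this gene.

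The Z-disc genes held both close followers and exceptions. Actn3, the α-actinin of fast fibres, which crosslinks actin in the Z-disc, had 17 and 3.89 FPKM in the libraries at 22 °C, 138 and 57.1 in the 4 °C ones, 19.4 and 36.4 with CD and 4.03 and 0.638 with HFD. Actn2, the α-actinin of all fibre types, had 59.4 and 18.8 FPKM in the cold against 1.37 and 0.418 at 22 °C, and 1.26 and 0.469 with HFD against 2.76 and 17.4 with CD. Relative to Actn3 it stood at 0.0804 and 0.108 in the 22 °C libraries, 0.429 and 0.33 in the 4 °C ones, 0.142 and 0.477 with CD and 0.312 and 0.735 with HFD. The ratio was thus lowest in both 22 °C libraries.

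Xirp1, an actin-binding protein of muscle attachment sites that is known to be raised in injured or overloaded muscle, had 0.215 and 0.121 FPKM in the libraries at 22 °C, 38.9 and 9.17 in the 4 °C ones, 0.303 and 2.15 with CD and 0.127 and 0.0251 with HFD. Set against Ckm it was not in constant proportion: as a percentage of the FPKM of Ckm it was 0.187 and 0.557 in the 22 °C libraries, 3.88 and 2.27 in the 4 °C ones, 0.234 and 0.837 with CD and 0.404 and 0.702 with HFD. Its relative Xirp2 kept between 2.3% and 5.24% of Ckm in all 8 libraries, with 3.38% and 2.94% at 4 °C.

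Ldb3, a PDZ and LIM protein that binds α-actinin, was at 36.7 and 23.2 FPKM in the cold against 3.48 and 0.936 at 22 °C, and 1.62 and 0.245 with HFD against 2.4 and 16.7 with CD. Myot, myotilin, also a partner of α-actinin, was at 4.45 and 0.834 FPKM in the libraries at 22 °C, 53.5 and 31.1 in the 4 °C ones, 7.86 and 25.7 with CD and 2.15 and 0.233 with HFD. In both, the 2 groups of each comparison did not overlap. Des, desmin, the intermediate filament that ties Z-discs together and is also made in smooth muscle, was at 135 and 79.9 FPKM in the cold against 28.3 and 22 at 22 °C, and 21.4 and 20.5 with HFD against 43.8 and 52.7 with CD. Its libraries differed by at most 6.6-fold and the HFD and 22 °C values lay close together. Myoz1 and Tcap, further Z-disc proteins of fast fibres and of all fibres, ranged from 0.415 to 78.9 FPKM and from 0.568 to 102.5 FPKM.

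For Ttn, titin, the values were 9.85 and 2.76 FPKM in the libraries at 22 °C, 82.7 and 40.7 in the 4 °C ones, 5.92 and 66.4 with CD and 4.15 and 0.284 with HFD. Myom1 and Myom2, the myomesins that crosslink myosin in the M-band, differed from each other in HFD replicate 6. Myom1 was at 21.2 and 14.4 FPKM in the cold against 2.97 and 1.42 at 22 °C, and 2.33 and 0.85 with HFD against 3.53 and 13.9 with CD. Myom2 was at 2.01 and 0.496 FPKM in the libraries at 22 °C, 22 and 12.7 in the 4 °C ones, 2.87 and 10.2 with CD and 1.46 and 0.104 with HFD. Exons of Myom1 overlap those of Myl12a, a regulatory light chain of non-muscle myosin on the opposite strand with 38.8 to 110.5 FPKM. Whether fragments were assigned by strand is not stated. Klhl41, an adaptor of a ubiquitin ligase that stabilises nebulin, was at 15.8 and 10.9 FPKM in the cold against 1.67 and 0.439 at 22 °C, and 1.28 and 0.125 with HFD against 2.56 and 12.2 with CD. All 3 of these genes separated the 4 °C from the 22 °C libraries, and so did Ttn.

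Of the calcium genes, Pvalb, parvalbumin, the calcium buffer of fast fibres, was the most abundant with 41.6 and 8.03 FPKM in the libraries at 22 °C, 302 and 122 in the 4 °C ones, 36.1 and 89.8 with CD and 9.53 and 0.796 with HFD. Trdn, triadin, which anchors the calcium release channel, was at 18.7 and 7.7 FPKM in the cold against 2.19 and 0.533 at 22 °C, and 0.821 and 0.239 with HFD against 3.79 and 8.56 with CD. Cacng1, a subunit of the voltage sensor, was low throughout with 0.436 and 0.0681 FPKM in the libraries at 22 °C, 2.17 and 1.27 in the 4 °C ones, 0.548 and 1.25 with CD and 0.163 and 0.1 with HFD, and its lowest value rests on about 9.09 fragments. Cacna1s, the voltage sensor itself, ranged from 0.0525 to 16.6 FPKM. All 4 were highest in 4 °C replicate 2.

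The energy genes included the most abundant of all, Ckm, the muscle creatine kinase that regenerates ATP from phosphocreatine, with 1002 and 404 FPKM in the cold against 115 and 21.7 at 22 °C, and 31.4 and 3.58 with HFD against 129.6 and 257 with CD. Mb, myoglobin, the oxygen store of muscle, was at 19.7 and 3.14 FPKM in the libraries at 22 °C, 135 and 125 in the 4 °C ones, 23.4 and 94.8 with CD and 12 and 1.67 with HFD. Its 2 libraries at 4 °C differed by 1.08-fold, where those of Ckm differed by 2.48-fold. Exons of Mb overlap those of Apol6 on the opposite strand, which was at 9.4 to 56.6 FPKM with its highest values in the HFD libraries.

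Eno3, muscle enolase, was at 142 and 58.3 FPKM in the cold against 16.1 and 5.44 at 22 °C, and 9.36 and 2.57 with HFD against 30.2 and 63.8 with CD. Pfkm, the muscle phosphofructokinase, which many other tissues also make, was at 22.6 and 17.1 FPKM in the libraries at 22 °C, 74 and 39 in the 4 °C ones, 19.7 and 31.4 with CD and 10.1 and 9.77 with HFD. Pfkm thus spanned only 7.57-fold over the 8 libraries, and its libraries at 22 °C were nearly as high as those under CD. Pgam2, Pygm, Ampd1 and Cox6a2, the muscle isoforms of phosphoglycerate mutase, glycogen phosphorylase, AMP deaminase and cytochrome c oxidase subunit 6a, had their highest values (13.5 to 152.7 FPKM) in 4 °C replicate 2 and their lowest (0.102 to 1.18 FPKM) in HFD replicate 6.

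**Figure D1:**
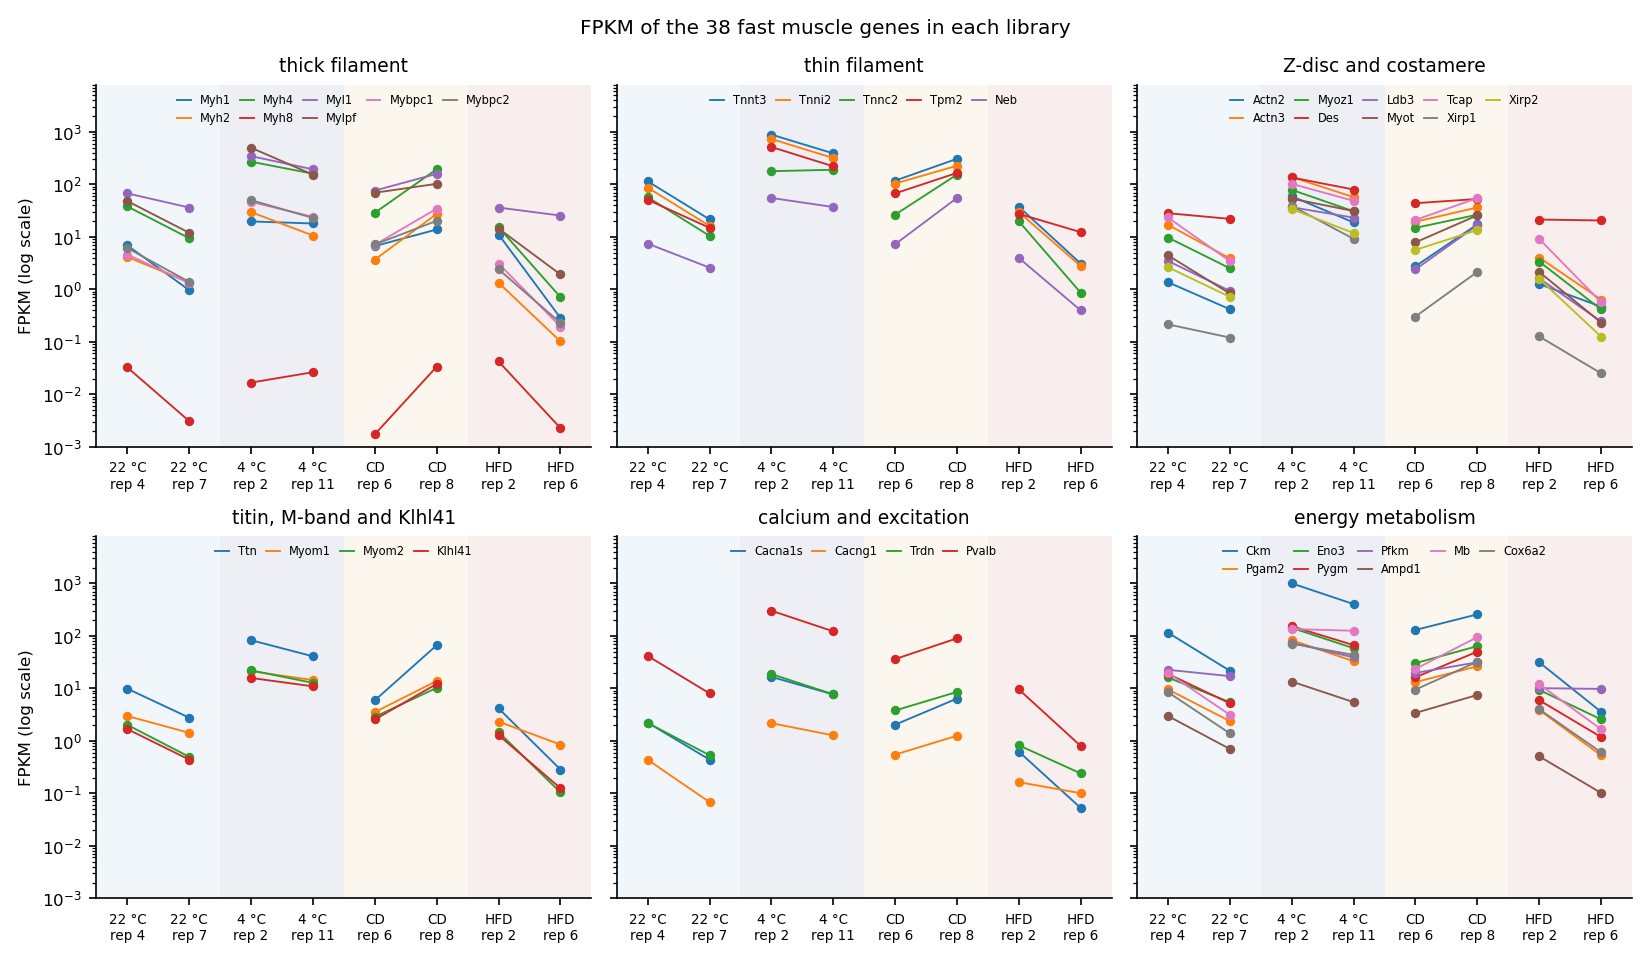
FPKM on a logarithmic axis of the 38 fast muscle genes in each of the 8 libraries, 1 panel per role and 1 colour per gene, with lines joining the 2 replicates of a group. Most lines of a group slope the same way, with Myh8 far below the others and Des, Pfkm, Myl1 and Cacng1 among the flattest between the HFD replicates.

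Library by library, most of the 38 genes moved together, with Myh8 among the exceptions. Each gene was expressed as log2 FPKM minus its own mean over the 8 libraries, and the median over the genes gave the scale of the library. This scale was 0.07 and −1.95 in the 22 °C libraries, 3.09 and 2.09 in the 4 °C ones, 0.27 and 1.83 with CD and −1.20 and −4.38 with HFD. The range of 7.47 is a 177-fold difference between 4 °C replicate 2 and HFD replicate 6. The interquartile range of the genes was 1.71 to 2.27 in 4 °C replicate 11 and 1.59 to 2.14 in CD replicate 8, so these neighbours overlapped. The same held for CD replicate 6 (−0.11 to 0.54) and 22 °C replicate 4 (−0.27 to 0.34). The other neighbours in the order, 4 °C replicate 2 (2.73 to 3.34), HFD replicate 2 (−1.40 to −0.94), 22 °C replicate 7 (−2.17 to −1.71) and HFD replicate 6 (−4.68 to −3.41), did not overlap the libraries next to them.

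The common scale separated replicates as well as groups. In 22 °C replicate 4, 38 of 38 genes were higher than in 22 °C replicate 7, by a median of 4.02-fold. In 4 °C replicate 2, 36 of 38 were higher than in replicate 11, by a median of 2.13-fold. CD replicate 8 exceeded CD replicate 6 in 38 of 38, by 2.72-fold, and HFD replicate 2 exceeded HFD replicate 6 in 38 of 38, by 8.47-fold. The summed FPKM of the 38 genes was 858.9 and 234.5 in the 22 °C libraries, 6462 and 3040 in the 4 °C ones, 943 and 2479 with CD and 344 and 94.1 with HFD. CD replicate 8 therefore lay nearer to the 4 °C libraries than to its own replicate on the log scale.

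A factor for the library took 90.2% of the variation of the 38 genes around their own means, and 92% without Myh8. For the 10682 autosomal genes above 0 in all 8 libraries and with a mean of at least 1 FPKM, such a factor took 11.5%. A high share was not particular to the fast genes. Among the comparison lists described below it was 90.8% (erythroid, 3 genes), 82.4% (other skeletal muscle), 79.3% (slow muscle) and 77.7% (macrophage). In the remaining lists it ran from 23.1% (non-muscle counterparts) to 62.8% (smooth muscle). The highest library exceeded the lowest by a median of 169-fold for the 38 genes and of 2.41-fold for those 10682, and a span of at least 50-fold was reached by 31 of the 38 and by 1.99% of the 10682. These are descriptions without a test, since genes that share a library are not independent.

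**Figure D2:**
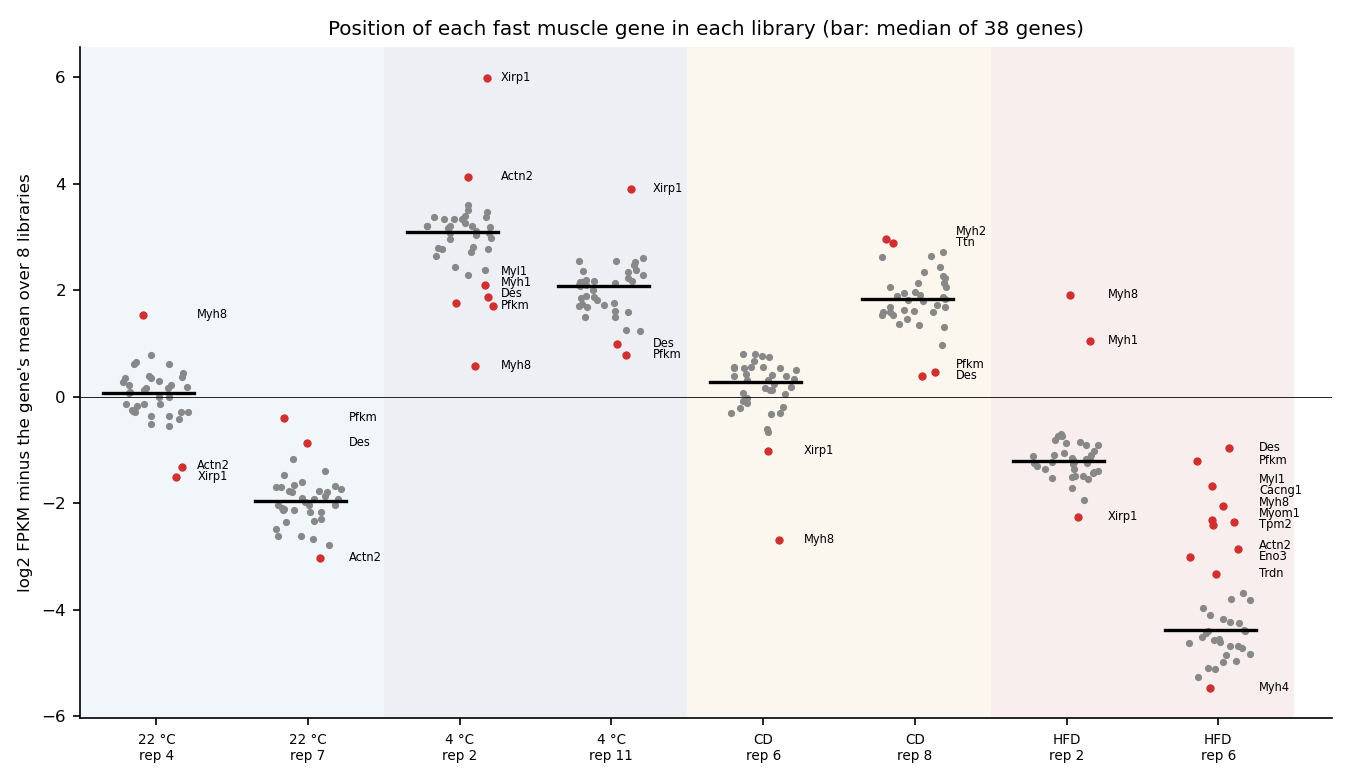
Log2 FPKM of each of the 38 genes minus its mean over the 8 libraries, by library, with the median of the genes as a bar and genes more than 2-fold from the others in red and named. The medians run from 3.09 (4 °C replicate 2) to −4.38 (HFD replicate 6), and HFD replicate 6 has 10 genes far above its median and 1 far below.

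The genes kept to the common scale to different degrees. Over all 8 libraries, 23 of the 38 stayed within 2-fold of the scale of the others. Their own number was chosen on these values, so it describes them only. The other 15 departed by more than 2-fold in at least 1 library: Myh1, Myh2, Myh4, Myh8, Myl1, Tpm2, Actn2, Des, Xirp1, Ttn, Myom1, Cacng1, Trdn, Eno3 and Pfkm. HFD replicate 6, of the lowest scale, held 11 of these departures, and for 6 of the 15 genes it was the only one.

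Of the 11 departures in HFD replicate 6, 10 were above the scale. On the log2 scale Des lay 3.42 above the other genes there, Pfkm 3.18, Myl1 2.72, Cacng1 2.33, Myh8, at about 1.24 fragments there, 2.09, Myom1 2.04 and Tpm2 1.98. Actn2 followed with 1.53, Eno3 with 1.38 and Trdn with 1.07. Des and Pfkm also lay above the scale in 22 °C replicate 7, by 1.1 and 1.57, and below it by 1.11 to 1.45 in both 4 °C libraries and CD replicate 8. In each of these libraries both genes thus lay nearer to their own means than the common scale did. Myh4 was the departure below in HFD replicate 6, at −1.09. In CD replicate 8 Myh2 and Ttn lay 1.14 and 1.07 above the other genes.

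Xirp1 lay highest over the other genes at 4 °C. It was 2.92 above the other genes in 4 °C replicate 2 and 1.84 above in 4 °C replicate 11, but 0.02 below in CD replicate 8, whose scale was close to that of 4 °C replicate 11. In 22 °C replicate 4, CD replicate 6 and HFD replicate 2 it lay 1.59, 1.32 and 1.08 below. Actn2 lay 1.05 and 0.40 above at 4 °C, 1.40 and 1.1 below at 22 °C and 0.53 above in CD replicate 8, but furthest above, as given, in HFD replicate 6. At 0.0251 to 0.303 FPKM in 5 libraries and 38.9 FPKM in 4 °C replicate 2, Xirp1 had the widest span of the 38 genes, 1549-fold.

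Myh1 departed mainly in HFD replicate 2, where it lay 2.26 above the other genes on the log2 scale, and in 4 °C replicate 2, where it lay 1.23 below. In HFD replicate 2 it had about 6683 fragments. Myh8, of about 1.23 to 25.8 fragments, departed in 5 libraries, from −3.00 (CD replicate 6) to 3.13 (HFD replicate 2). Of the summed FPKM of Myh1, Myh2 and Myh4, Myh1 took 14% and 8.23% in the 22 °C libraries, 6.16% and 9.54% in the 4 °C ones, 17.1% and 5.85% with CD and 40.1% and 26% with HFD. Myh4 took 77.6% and 80.3% in the 22 °C libraries, 84.6% and 84.8% in the 4 °C ones, 73.5% and 82.5% with CD and 55% and 64.7% with HFD. Both HFD libraries thus had the largest shares of Myh1 and the smallest of Myh4 among the 8, with 2 libraries per group and no test. Myh2 took between 4.84% (HFD replicate 2) and 11.6% (CD replicate 8), and its groups overlapped in the cold comparison.

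The shares of the roles in the summed FPKM varied less than the sum. Thin filament genes took 28% to 38% of the sum in 7 libraries and 20.6% in HFD replicate 6. Energy genes took between 21.3% and 26% in all 8. Thick filament genes took 19.1% to 26.7%, and 30.7% in HFD replicate 6, of which Myl1 alone made 27.1%. Z-disc genes took 9.91% to 14.9%, and 24.7% in HFD replicate 6, of which Des made 21.8%. Titin and the M-band genes took 1.31% to 3.65%, the calcium genes 1.26% to 5.4% and Klhl41 0.133% to 0.491%. Over these 8 libraries the summed FPKM ranged from 94.1 to 6462.

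The cold comparison asked what differs in BAT between 4 °C and 22 °C. In 4 °C libraries 7 of the 37 genes tested were higher past the threshold (adjusted p under 0.05 and at least 2-fold), where 1.22% of the 17470 genes tested were, and none was lower, where 0.223% were. The 7 were Actn2 (chr13:12269426-12340760), Ldb3 (chr14:34526699-34588681), Myot (chr18:44334074-44355724), Neb (chr2:52136647-52378474), Myom1 (chr17:71019521-71126856), Myom2 (chr8:15057653-15133541) and Klhl41 (chr2:69670120-69684230), all protein-coding genes at their GRCm38 positions. Actn2 rose by 4.24 (SE 0.57 and adjusted p 0.0442), Myot by 3.73 (SE 0.56 and adjusted p 0.0499) and Ldb3 by 3.36 (SE 0.45 and adjusted p 0.0442), 3 proteins of the Z-disc. Neb rose by 3.07 (SE 0.45 and adjusted p 0.0483), and the M-band genes Myom2 and Myom1 by 3.07 (SE 0.42 and adjusted p 0.0443) and 2.58 (SE 0.32 and adjusted p 0.0416). Klhl41 rose by 2.85 (SE 0.35 and adjusted p 0.0415). Fold changes are on the scale of log2(FPKM + 1), which understates those of genes of low level.

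The other 30 tested genes did not pass. All 37 had an unadjusted p under 0.05 and a positive fold change, as had 17.2% of all genes tested, and adjusted p ran from 0.0415 to 0.131. In all 37, both 4 °C libraries exceeded both 22 °C libraries, as in 37.9% of all genes tested, and Myh8 overlapped. The median log2 fold change was 3.13 for the 37 genes and 0.07 for all genes tested. Role medians were 3.08 (thick filament), 3.53 (thin filament), 3.26 (Z-disc), 3.07 (titin and M-band), 2.54 (calcium) and 3.18 (energy). The 7 that passed had standard errors of 0.32 to 0.57, and some genes with larger differences did not pass: Ckm had a log2 fold change of 3.63 (SE 0.86 and adjusted p 0.0857) and Xirp1 one of 4.11 (SE 0.63 and adjusted p 0.051). With 0.1 in place of 1 added to FPKM, Xirp1 (6.17) exceeded Actn2 (5.27). Pfkm, with 1.41 (SE 0.36 and adjusted p 0.098), and Cacng1, with 1.12 (SE 0.22 and adjusted p 0.0649), had the smallest, but with 0.1 added Pfkm was at 1.44 and Cacng1 at 2.56.

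The number of calls moved with single libraries. Without 4 °C replicate 2, 0 of the 37 genes passed with limma (29 at an unadjusted p under 0.05), against 0.00595% of all genes tested in that fit. Without 4 °C replicate 11, 3 passed, against 2.53% of all. Without 22 °C replicate 4 or 7, 36 or 32 passed, against 2.66% and 3.82%. With library type as a covariate 29 passed, against 4.32%. Within the satellite-high libraries the median log2 fold change was 1.77 and within the satellite-low ones 4.47. In each of the 4 pairings of a 4 °C with a 22 °C library, at least 37 of the 38 genes were higher at 4 °C, by a median log2 ratio of 1.82 (4 °C replicate 11 against 22 °C replicate 4) to 5.13 (4 °C replicate 2 against 22 °C replicate 7).

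The diet comparison asked what differs between HFD and CD. None of the 37 genes tested passed the threshold with limma, where 0.0171% of the 17535 genes tested were lower and 0.0513% higher. An unadjusted p under 0.05 with a negative fold change was reached by 36 of the 37, as by 2.34% of all genes tested, with adjusted p from 0.118 to 0.534. In 36 of the 37 both HFD libraries lay below both CD libraries, as in 5.8% of all genes tested, the exception being Myh1. The median log2 fold change was −2.85 for the 37 genes and 0.18 for all genes tested. Role medians were −2.85 (thick filament), −3.39 (thin filament), −2.52 (Z-disc), −2.00 (titin and M-band), −2.01 (calcium) and −2.87 (energy).

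Tnnt3 had the largest difference of log2(FPKM + 1) under HFD, −3.93 (SE 1.01 and adjusted p 0.17), but with 0.1 added Myh4 (−4.42) exceeded it (−4.12). Ampd1, at −2.25 (SE 0.36 and adjusted p 0.118), had the lowest adjusted p. Ckm had −3.91 (SE 0.89 and adjusted p 0.158) and Myh4 −3.86 (SE 1.16 and adjusted p 0.216). For Myh1 the value was −1.44 (SE 0.93 and adjusted p 0.534). The counts of calls again moved with single libraries: 34 of 37 genes passed without CD replicate 6, 28 without CD replicate 8, 31 without HFD replicate 2 and 1 without HFD replicate 6. Of all genes tested in these fits 1.09%, 0.675%, 0.753% and 0.179% were lower past the threshold. The median log2 fold change was −3.41, −1.87, −3.54 and −1.92 in that order. Leaving out CD replicate 6 is also the comparison among libraries that share a description prefix. With library type (satellite-high or satellite-low), of which each group holds 1 library each, as a covariate, 34 of the 37 passed, all lower, as did 0.895% of all genes tested, with 3.35% higher. Within the satellite-high libraries the median was −2.65 and within the satellite-low ones −2.58, with 1 library per group. In the 4 pairings of an HFD with a CD library, 36 to 38 of the 38 genes were lower under HFD, by median log2 ratios of −1.28 (HFD replicate 2 against CD replicate 6) to −6.13 (HFD replicate 6 against CD replicate 8).

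**Figure D3:**
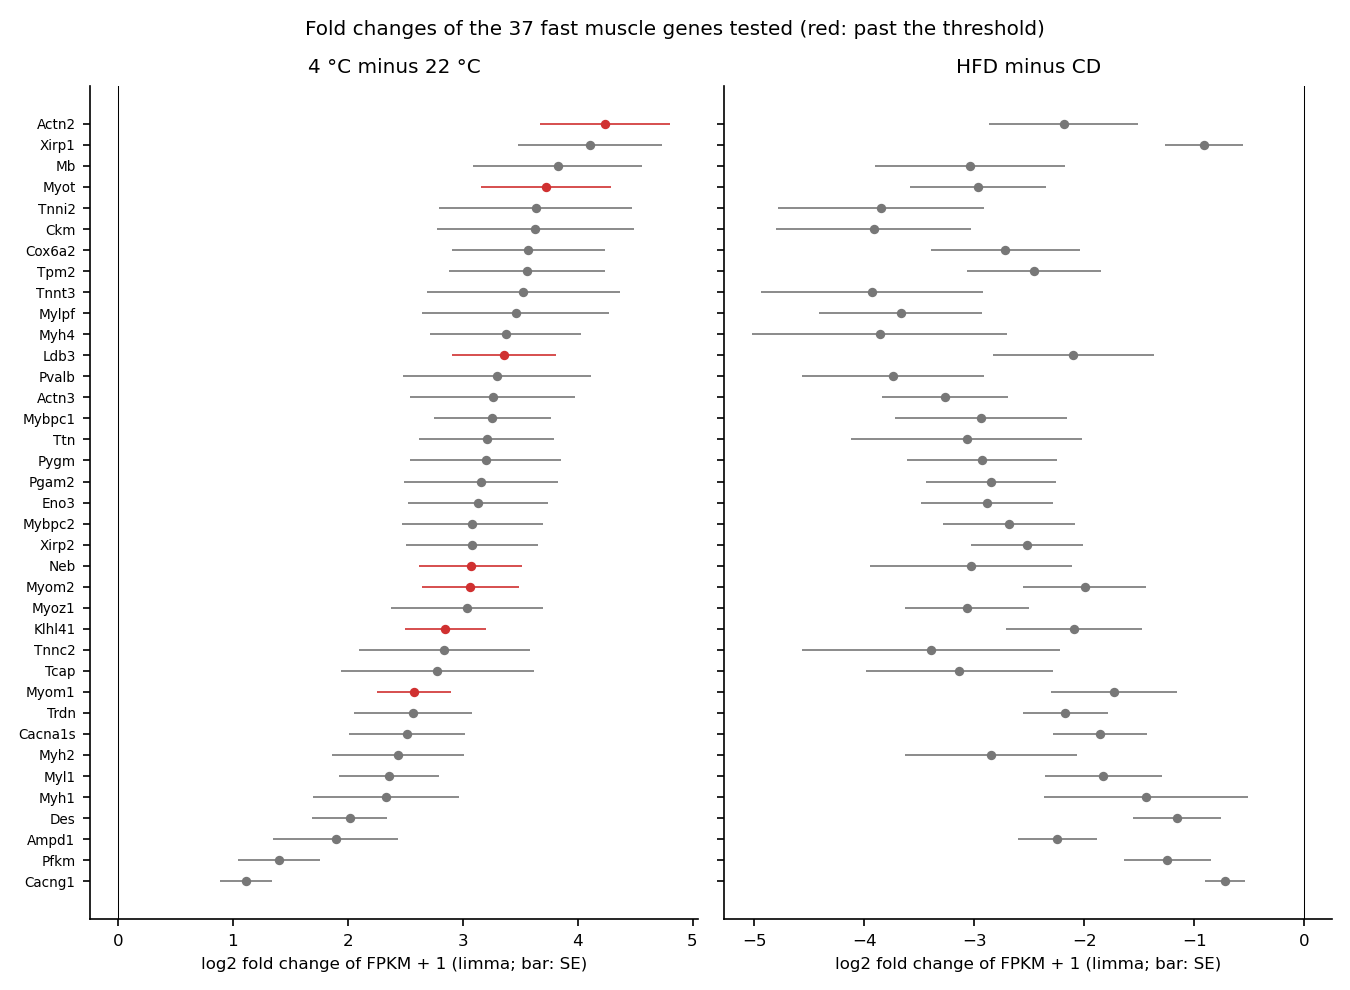
Log2 fold changes of FPKM + 1 with standard errors (limma) of the 37 genes tested, for 4 °C minus 22 °C at the left and HFD minus CD at the right, sorted by the former. All 37 lie right of 0 in the cold, with 7 past the threshold in red, and all 37 lie left of 0 under HFD, with none past it.

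Of the slow muscle genes, 12 genes of slow fibres such as Myh7, the slow heavy chain, most moved with the fast genes. The exceptions Myh7b, Casq2 and Tpm3 spanned only 4.99-fold, 4.75-fold and 5.81-fold over the 8 libraries, and each of the others at least 180-fold. The library scale of the slow list had a wider range than that of the fast genes, from −4.81 (HFD replicate 6) to 3.88 (4 °C replicate 2). Set against the scale of the fast genes it was lower by 0.94 and 1.07 at 22 °C, higher by 0.79 and 1.37 at 4 °C, lower by 0.20 and higher by 1.57 under CD, and lower by 0.59 and 0.42 under HFD. By these median scales, both 4 °C libraries and CD replicate 8 thus lay higher for slow relative to fast genes than the other 5. Summed FPKM gave another order. In HFD replicate 6 the slow list summed to 34.7 FPKM, of which Tpm3 made 32.3, beside 94.1 for the fast genes. In 4 °C replicate 2 the sums were 770 and 6462 FPKM. Myh7 had 19.3 and 18.9 FPKM in the cold against 0.578 and 0.0787 at 22 °C, and 0.509 and 0.0458 with HFD against 0.99 and 36.6 with CD, and of the summed FPKM of Myh7, Myh1, Myh2 and Myh4 it took 1.17% and 0.667% in the 22 °C libraries, 5.69% and 9.1% in the 4 °C ones, 2.46% and 13.4% with CD and 1.81% and 4% with HFD.

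In the cold 10 of the 12 slow genes rose past the threshold, where 1.22% of all genes tested did. Without 4 °C replicate 2, 0 of the 12 passed with limma (11 at an unadjusted p under 0.05), and the same 0 resulted with no filter on low values and with eBayes without trend. Myl2, the slow regulatory light chain, rose by 5.23 (SE 0.69 and adjusted p 0.0442) and Tnni1, slow troponin I, by 4.83 (SE 0.36 and adjusted p 0.0196). The others were Myh7, Myl3, Tnnt1, Tnnc1, Tpm3, Myoz2, Csrp3 and Ankrd2, of which the last 2 encode a LIM protein and an ankyrin protein that muscle is known to raise under load, with log2 fold changes of 5.63 and 5.54. Whether the slow genes differed more than the fast ones was not tested. Under HFD, 0 of the 11 slow genes tested passed with limma, where 0.0171% of all genes tested were lower past the threshold. An unadjusted p under 0.05 was reached by 9, all lower, as by 2.34% of all genes tested. With library type as a covariate 9 of the 11 passed, all lower, where 0.895% of all genes did. With all 8 libraries and that covariate 6 passed, against 0.262%. Leaving out 1 library also moved the count. Tpm3 is also made outside muscle and was at 15.2 to 88.2 FPKM.

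**Figure D4:**
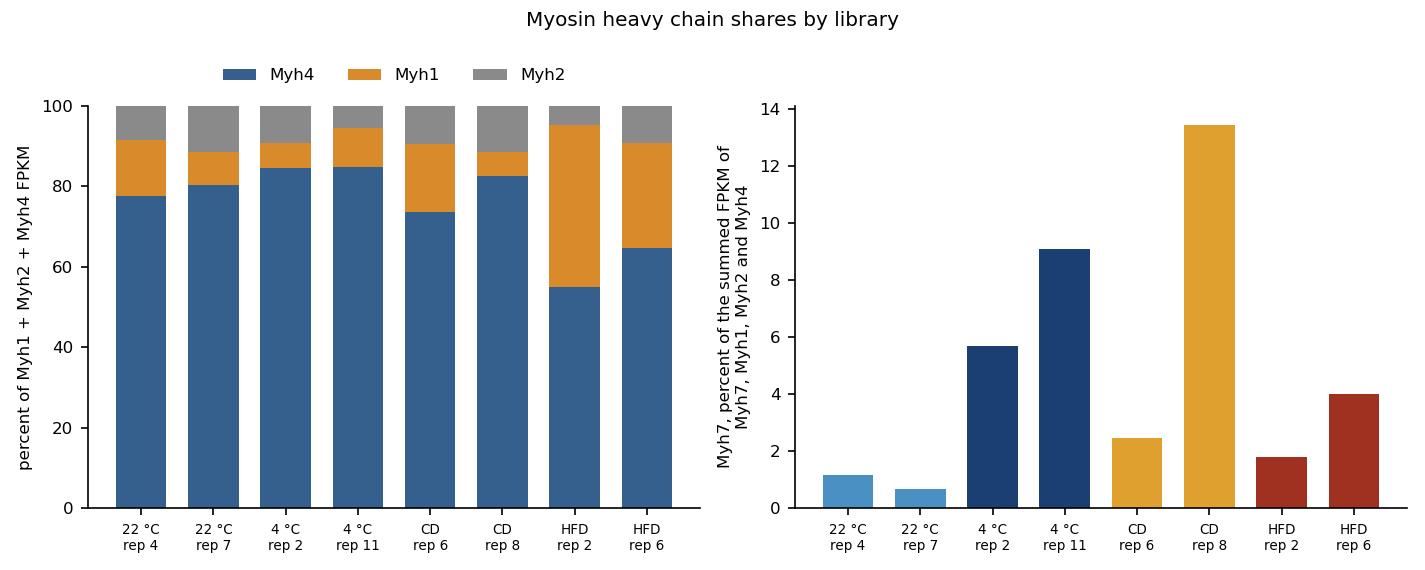
Left, shares of Myh4, Myh1 and Myh2 in their summed FPKM by library; right, the share of Myh7 in the summed FPKM of all 4 heavy chains. Myh1 takes 40.1% and 26% in the HFD libraries and at most 17.1% elsewhere, and Myh7 reaches 13.4% in CD replicate 8 and 9.1% in 4 °C replicate 11.

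Other skeletal muscle genes had a library scale from −2.99 (HFD replicate 6) to 2.99 (4 °C replicate 2). Of 30 listed, 28 were tested in the cold and 8 rose past the threshold, where 1.22% of all genes tested did. Among the 8 were Mylk2, Nrap, Flnc, Hspb7, Srl, Myf6 and Musk. All 28 were higher at an unadjusted p under 0.05 (limma), as were 17.2% of all genes tested. The number of calls moved when 4 °C replicate 2 or either 22 °C library was left out. Hspb7, a small heat shock protein of muscle, rose by 4.57 (SE 0.39 and adjusted p 0.0208) and Flnc, filamin C, by 4.43 (SE 0.49 and adjusted p 0.032). Musk, the kinase of the neuromuscular junction, rose by 1.05 (SE 0.11 and adjusted p 0.0304), from 0.106 and 0.039 FPKM at 22 °C to 1.41 and 1.04 FPKM at 4 °C. Atp2a1, the calcium pump of fast fibres and the most abundant gene of this list, had 39.4 and 11 FPKM in the libraries at 22 °C, 502 and 159 in the 4 °C ones, 33.8 and 115 with CD and 11.2 and 0.794 with HFD. Under HFD, 0 of 26 passed with limma, where 0.0171% of all genes tested were lower past the threshold. An unadjusted p under 0.05 was reached by 22, all lower, as by 2.34% of all genes tested. With library type as a covariate 16 of the 26 passed, all lower, where 0.895% of all genes did. With all 8 libraries and that covariate 3 passed, against 0.262%. Leaving out 1 library also moved the count.

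The non-muscle counterparts of the fast genes, 21 isoforms and relatives made outside skeletal muscle, of which Tpm3 also stands on the slow list, had a library scale of their own. It ranged from −0.59 (CD replicate 8) to 0.64 (4 °C replicate 2), and CD replicate 8, high for the fast genes, was lowest. Cox6a1, the counterpart of Cox6a2, spanned 1.9-fold over the 8 libraries where Cox6a2 spanned 117-fold. Myl6, the counterpart of Myl1, spanned 2.86-fold and Eno1, that of Eno3, 4.25-fold. Pfkl and Pfkp, the counterparts of Pfkm, spanned 6.17-fold and 5.29-fold, close to the 7.57-fold of Pfkm itself, and Pygl, one of Pygm, 7.85-fold. The widest span among the counterparts paired with a gene was the 38.8-fold of Ckb. In the cold 2 of the 21 rose (Ckb and Tpm3) and 1 fell (Ampd2), where 1.22% and 0.223% of all genes tested did. The number that rose moved when 4 °C replicate 2 or 22 °C replicate 7 was left out. Under HFD 0 passed with limma, with 6 higher and 1 lower at an unadjusted p under 0.05. Of all 17535 genes tested, 2531 reached that p in either direction, 411 of them lower. With library type as a covariate 4 were higher and 1 lower under HFD, where 3.35% and 0.895% of all genes tested were.

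Ckb, the creatine kinase of brown adipocytes and brain, had 252 and 180.5 FPKM in the cold against 7.96 and 6.5 at 22 °C, and 11.8 and 11.6 with HFD against 9.33 and 7.48 with CD. It rose by 4.71 (SE 0.26 and adjusted p 0.0176) in the cold, and its replicates lay closer together than those of Ckm in every group. Its CD and HFD libraries stayed between 7.48 and 11.8 FPKM while Ckm ranged from 3.58 to 257.1. The higher replicate was that of the fast genes at 22 °C, at 4 °C and under HFD, but not under CD. Ckm therefore made 93.5% and 76.9% of the pair at 22 °C, 79.9% and 69.1% at 4 °C, 93.3% and 97.2% with CD and 72.7% and 23.6% with HFD. Ampd2 had a log2 fold change of −1.56 with an SE of 0.19 and an adjusted p of 0.0415, and its muscle counterpart Ampd1 made 31.3% and 9.78% of the pair at 22 °C and 91.2% and 74.9% at 4 °C. Of its pair with Ampd3 it made 52% and 16.3% at 22 °C and 63% and 45.1% at 4 °C, where the groups overlapped. For enolase, Eno3 made 6.59% and 1.46% at 22 °C and 16.3% and 7.35% at 4 °C, with Eno1 itself at 228.8 and 367.4 FPKM and at 728.4 and 734.7 FPKM.

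Markers of other cells that the tissue could hold were read beside these results. Of 9 cardiac genes, Myh6, Nppa, Nppb and Myl7, which define heart muscle, stayed at or below 0.0511 FPKM in every library, and the list summed to between 1.51 and 5.63 FPKM. Of the 4 cardiac genes tested, 0 passed with limma in either comparison, with 3 and 1 higher at an unadjusted p under 0.05 in the cold and under HFD. With library type as a covariate 1 of the 4 was higher under HFD. Smooth muscle genes, 9 in number, summed to 36.8 and 30.8 FPKM in the libraries at 22 °C, 89.6 and 70.5 in the 4 °C ones, 17.6 and 26.5 with CD and 49.9 and 44.9 with HFD. Of the 9, 0 passed the threshold with limma in either comparison, with 8 higher at an unadjusted p under 0.05 in the cold and 4 under HFD. Among all genes tested, 17.2% were higher at that p in the cold. Under HFD 2531 of 17535 genes tested reached it in either direction, 411 of them lower. With library type as a covariate 2 passed in the cold and 1 under HFD, all higher. Of all genes tested 4.32% and 3.35% were higher in these fits. The sums of the smooth muscle genes were higher in both 4 °C than in both 22 °C libraries, and higher in both HFD than in both CD libraries. The part of smooth muscle in Des and Tpm2 was not tested.

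Of the 13 brown adipocyte genes, Dio2, Elovl3 and Ppargc1a rose past the threshold in the cold, where 1.22% of all genes tested did. The number of calls moved when 4 °C replicate 2 or 22 °C replicate 7 was left out. Under HFD 0 passed with limma (2 lower at an unadjusted p under 0.05, as were 2.34% of all genes tested). With library type as a covariate 3 were lower under HFD, where 0.895% of all genes tested were. The list's library scale ran from −0.40 in CD replicate 8 to 0.39 in 4 °C replicate 2. One gene on it, Ckmt2, the mitochondrial creatine kinase of muscle and brown fat, had 6.02 and 1.14 FPKM in the libraries at 22 °C, 83.5 and 41.4 in the 4 °C ones, 9.15 and 29.3 with CD and 3.67 and 0.338 with HFD. It was named after its values were seen, and its order of the 8 libraries was that of the scale of the fast genes. Of 6 nerve and Schwann cell genes tested, 2 rose past the threshold in the cold, where 1.22% of all genes tested did. Among the 2 was S100b, a calcium-binding protein of glia, from 7.66 and 7.95 FPKM to 23.3 and 21.4 FPKM. The number of calls moved when either 4 °C library or 22 °C replicate 4 was left out. Of the 6, 0 passed under HFD with limma, with 0 at an unadjusted p under 0.05. Of the 6 macrophage, 6 endothelial and 3 erythroid genes found, 0 passed with limma in either comparison. At an unadjusted p under 0.05, 0, 3 and 0 were higher in the cold and 5, 0 and 1 under HFD. In the cold 1 endothelial gene was lower at that p. Among all genes tested, 4278 of 17470 reached it in the cold, 3009 of them higher. Under HFD 2531 of 17535 did, 411 of them lower. With library type as a covariate 5 macrophage, 0 endothelial and 1 erythroid genes passed under HFD, all higher. In that fit 3.35% of all genes tested were higher. Leaving out 1 library also moved the count of macrophage genes under HFD.

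**Figure D5:**
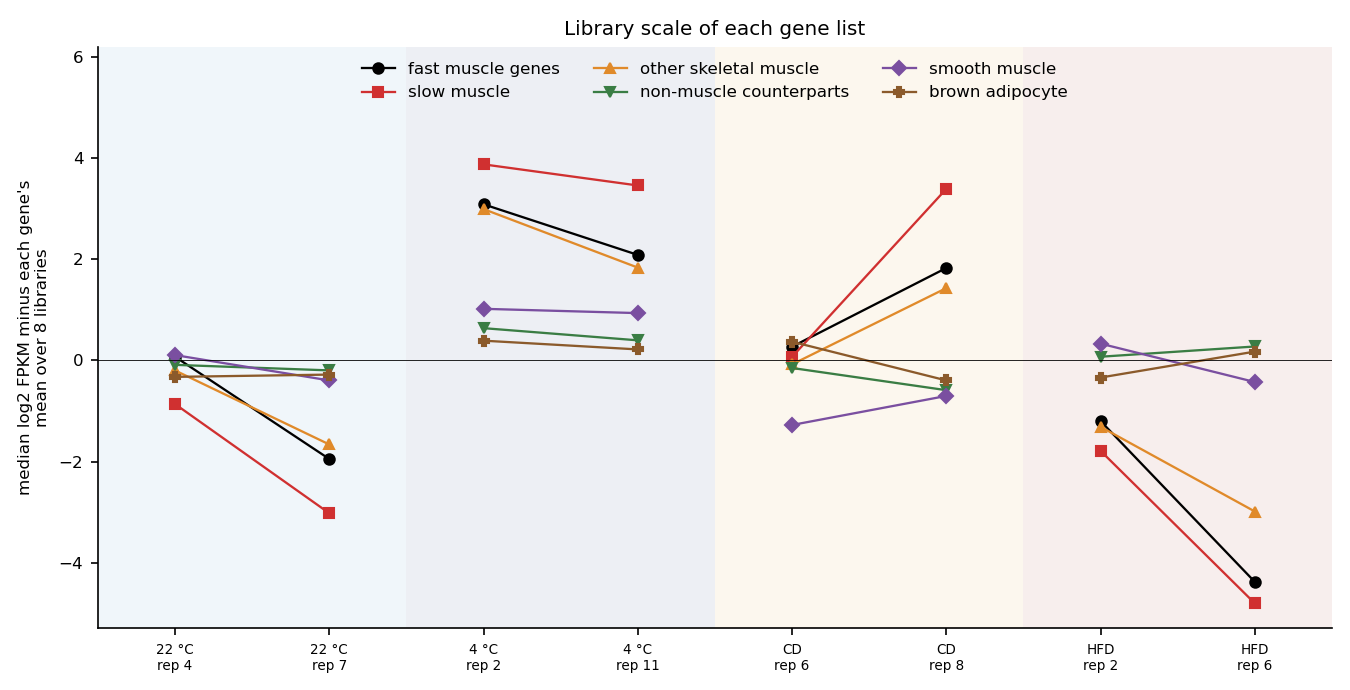
Median log2 FPKM of each gene list minus the genes' own means, by library, for the fast muscle genes and 5 comparison lists. The 3 skeletal muscle lists are each highest in 4 °C replicate 2 and lowest in HFD replicate 6, while the counterparts and the brown adipocyte genes stay within −0.59 and 0.64.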

How the data were processed

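The authors depleted ribosomal RNA, prepared directional libraries, sequenced paired ends and processed the reads with the QuickNGS pipeline: mapping to GRCm38 with TopHat2 (2.0.10) and quantification with Cufflinks (2.1.1 in the methods, 2.2.1 in the submitters' processing notes) on Ensembl release 87. STAR and DESeq2 are named in those notes without a role for this table. The deposited table holds FPKM, which the authors computed for every gene in every library with no replicate pooled. Multiples of what 1 fragment is worth were recovered for 98.04% to 98.79% of low values (within 0.1 fragment), which gave the fragment numbers quoted.

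Tests used limma (3.58.1, under R 4.3.3, lmFit and eBayes with trend) on log2 of FPKM plus 1, over the 4 libraries of a comparison. Autosomal genes with at least 0.1 FPKM in at least 2 libraries entered, and p-values were adjusted by the Benjamini-Hochberg method over all of them, with a threshold of 0.05 and a log2 fold change of 1. The fit was tested on simulated data. An exact permutation test of 2 against 2 cannot go below a two-sided p of 0.333. The methods give n = 2 per condition without saying whether each library is 1 separate animal, so p-values measure the spread between these libraries only.

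The 39 genes and all comparison lists were chosen with earlier results of these data known. Values in every library are given for the 2 genes of highest mean in each role, the myosin heavy chains, genes past the threshold and genes more than 2-fold from the scale of the others in any library, and the rest by range. Genes of comparison lists are named where they are among the 2 highest in their list, past the threshold or a counterpart, except for genes of these lists that are not reported here. Exon overlaps are from GENCODE M21 (GRCm38) and promoters from RefSeq. Alternatives in pseudocount, filter, scaling, covariates and libraries left out were run.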

Additional observations from a re-analysis of the deposited data

How the results depend on the processing

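The median log2 fold change of the fast genes kept its sign under every alternative run. In the cold it lay between 1.77 (satellite-high libraries only) and 4.47 (satellite-low only), each with 1 library per group, against 3.13. Under HFD it lay between −1.87 (without CD replicate 8) and −3.88 (pseudocount of 0.01) against −2.85. Every single gene but 1 kept its sign as well. The log2 fold change of Myh1 under HFD ranged from −3.05 (without HFD replicate 2) to 0.18 (without HFD replicate 6) when 1 library was left out. The number of genes past the threshold was less stable, and the cause was not tested. In the cold, against 7 of 37, it was 1 with a pseudocount of 0.01, 0 with no filter on low values, 14 with a filter of 1 FPKM, 30 with median centring, 29 with library type as a covariate, 27 with all 8 libraries and that covariate, 20 with X, Y and mitochondrial genes kept, 0 with eBayes without trend, and 0 to 36 when 1 library was left out. The share of all genes tested that was higher moved as well, from 1.22% to 0.63% with that pseudocount, 0% with no filter, 4.1% with the stricter filter, 2.84% with centring, 4.32% and 4.44% with the covariate, 4.62% with X, Y and mitochondrial genes and 0% without trend. Under HFD, against 0, it was 1 with a filter of 1 FPKM, 34 with library type as a covariate, 11 with all 8 libraries and that covariate, and 1 to 34 when 1 library was left out, where 0.0546%, 0.895%, 0.262% and 0.179% to 1.09% of all genes were lower. A group left with 1 library is assumed to vary like the other. In the cold comparison, X genes were listed at 0 in both 22 °C libraries, while 781 and 840 were above 0 at 4 °C. The fit that kept X, Y and mitochondrial genes, with 829 genes higher against 213, thus held differences set by this listing. Its count of calls therefore does not test how stable the 7 are. Without Ckm the energy genes made a mean of 14.6% of the summed FPKM. Over all genes tested, 213 were higher and 39 lower in the cold, but 497 and 265 after median centring, which shifted the median of all genes from 0.07 to −0.19, and 304 and 270 when rescaled to the sum of autosomal mRNA and lncRNA. Under HFD 9 were higher and 3 lower, 17 and 14 after median centring, and 0 and 0 with quantile normalization and with both rescalings (limma; 2126, 2333 and 2248 at an unadjusted p under 0.05). Across single genes and alternatives in the cold, 428 tested results stayed on their side of the threshold, 160 gained a call and 41 lost one. No paired analysis was possible because the groups compared share at most 1 replicate number, and library type, which the data and not the labels define, was a covariate in its place.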
